A study of Mus musculus with 2 samples.

Results

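The genes described here are those of potassium channels and their accessory subunits in single cells of the mouse dentate gyrus, a part of the hippocampus where granule neurons continue to be born in adult life. They were chosen by name, as the gene columns whose symbol starts with Kcn followed by a family letter and a number, without the glial and pericyte inward rectifiers Kcnj10 and Kcnj8. This gave 81 of the 17592 measured genes, of which 80 encode channel or accessory proteins and 1, Kcnmb4os2, is an antisense RNA kept because its symbol fits the rule. C57BL/6 mice were used at both ages, with no other genotype or treatment in the labels. A young library came from mice of 3 months and an old library from mice of 16 months, 1 library at each age, and how many animals went into each is not given in the sources used here. Cells were released with papain and sorted for viability, so what is described is the RNA of cells that survived dissociation.

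Potassium channels let potassium leave or enter a cell and so set its resting voltage, shape its electrical signals and clear potassium from the space around neurons. The pore-forming proteins fall into voltage-gated channels, channels opened by internal calcium or sodium, inward rectifiers, and leak channels of the K2P family, which carry a pair of pore domains per protein. Silent subunits join voltage-gated channels and do not form channels alone, and accessory proteins bind a pore protein and alter its gating or its traffic to the membrane. Most of what is known of these genes comes from neurons, yet astrocytes, oligodendrocytes, microglia and the muscle cells of vessels each depend on potassium conductances of their own.

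The young library held 2463 cells and 16217559 UMIs (unique molecular identifiers, each standing for 1 captured RNA molecule), and the old library 1430 cells and 7451506 UMIs. Before any result, the libraries must be set side by side, because they share cells. In the old library, 1401 of 1430 barcodes (98.0%) also occurred in the young one. Cells outside the clusters of low mitochondrial share described below are called brain-class cells here. There were 1148 in the young and 1141 in the old library, of which 44 and 43 were in a cluster that stayed unnamed. Of their barcodes, 1113 were in both libraries, and all 1113 fell in the same class in both. The old rows are therefore printed as a second table of mostly the same cells, never as an age group or a replicate. The young library also held 1315 cells in clusters with a median mitochondrial share under 1%, which were not named after a brain type and are left out of the class comparisons. Classes were named from marker genes and carry the ending "-like". No cluster was named after mature granule, pyramidal or GABAergic neurons, so the mature neurons of the dentate gyrus are not described. Levels are the UMIs of a gene summed over a class per 10,000 UMIs of that class. The chemistry counts 1 tag per molecule at its 3' end, so levels were not divided by gene length, and order between genes can still be moved by how well each 3' end is captured. All intervals are 95%, exact (Poisson for levels, Clopper-Pearson for shares of cells, conditional for ratios), and cover counting error only. With 1 library per age and no labels that set animals apart there is no test.

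The pore of a potassium channel is lined by its selectivity filter, a short signature that strips water from potassium ions. It was searched in frame in the longest coding sequence of each gene as a run of 5 codons for threonine or serine, then valine, isoleucine, threonine or leucine, then glycine, then tyrosine, phenylalanine or leucine, then glycine. These letters were settled after matches in the members had been seen. All 28 voltage-gated pore genes, 7 silent subunits, 8 calcium- or sodium-activated channels and 12 inward rectifiers held 1 match, all 11 K2P genes held 2, and none of the 14 accessory genes held any. Of 15234 other genes in the table with a coding sequence, 1.38% held at least 1 match and 0.0263% held 2. The sequences below are shown because these genes carry the differences between cell types described next, and because they let the members of 1 family be told apart. Each is 45 bases of coding sequence from GENCODE M21 on GRCm38 (the assembly also called mm10), written 5′ to 3′ on the strand of the gene, with the filter codons in capitals. The leak channels of the microglia-like cells, with both filters of each, were as follows.
Kcnk13 filter 1: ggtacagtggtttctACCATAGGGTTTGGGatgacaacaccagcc
Kcnk13 filter 2: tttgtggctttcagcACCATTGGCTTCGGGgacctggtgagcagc
Kcnk12 filter 1: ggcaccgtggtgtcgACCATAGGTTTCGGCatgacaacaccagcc
Kcnk12 filter 2: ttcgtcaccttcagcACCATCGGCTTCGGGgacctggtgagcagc
Kcnk6 filter 1: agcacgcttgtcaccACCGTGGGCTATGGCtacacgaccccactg
Kcnk6 filter 2: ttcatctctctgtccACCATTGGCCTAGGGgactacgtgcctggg
In these windows Kcnk13 and Kcnk12 were identical at 84.4% of bases around the first filter and 88.9% around the second, while Kcnk13 and Kcnk6 were identical at 53.3% and 60.0%. The second filters lie each within 1 coding exon, at chr12:100061361-100061405 (plus strand) for Kcnk13, chr17:87746438-87746482 (minus strand) for Kcnk12 and chr7:29225521-29225565 (minus strand) for Kcnk6, whereas the window of each first filter crosses an exon junction.

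The voltage-gated channels that marked myelinating cells, astrocytes, neuroblasts and precursors are shown in the same way. Of these, Kcna1, Kcna2 and Kcna6 belong to 1 subfamily, and yet Kcna2 was highest in another class than Kcna1 and Kcna6.
Kcna1: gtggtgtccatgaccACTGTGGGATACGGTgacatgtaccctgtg
Kcna2: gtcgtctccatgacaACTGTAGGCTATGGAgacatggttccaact
Kcna6: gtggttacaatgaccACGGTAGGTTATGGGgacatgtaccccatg
Kcnb2: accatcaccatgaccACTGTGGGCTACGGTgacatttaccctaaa
Kcnh7: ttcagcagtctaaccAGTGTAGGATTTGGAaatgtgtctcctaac
Kcnd2: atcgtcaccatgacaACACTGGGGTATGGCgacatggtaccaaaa
Kcna1 was identical to Kcna6 at 77.8% of the bases and to Kcna2 at 68.9%. Within 1 coding exon each are the windows of Kcna1 (chr6:126642213-126642257, minus strand), Kcna6 (chr6:126738632-126738676, minus strand), Kcna2 (chr3:107105209-107105253, plus strand), Kcnb2 (chr1:15710031-15710075, plus strand) and Kcnh7 (chr2:62777328-62777372, minus strand), and that of Kcnd2 crosses an exon junction. The 3' ends, which the assay reads, told the members apart: of the 81, none shared 50% or more of its 31-base words with another gene on the same strand. On the opposite strand 1 did, Kcnj13, with 62.1% shared with Gigyf2, and for Kcnh7 the share was 31.4%, with Gca.

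Over the young brain-class cells the 81 genes gave 4040 UMIs. Kcnf1, a silent subunit, had none, 14 genes had 1 to 3 UMIs, 17 had 4 to 9 and 49 had 10 or more, of which 11 had at least 100. The summed level differed widely between classes. It was 20.4 UMIs per 10,000 (18.9 to 22.0) in the 42 oligodendrocyte precursor-like cells, 14.2 (13.4 to 15.0) in the 304 astrocyte-like cells and 10.3 (9.37 to 11.3) in the 58 neuroblast-like cells. Next came the 14 smooth muscle-like cells with 9.37 (7.50 to 11.6) and the 82 mature oligodendrocyte-like cells with 7.003 (6.41 to 7.64). The interval of the smooth muscle-like cells overlapped those of neuroblast-like and mature oligodendrocyte-like cells. Pericyte-like cells (70) had 3.64 (2.91 to 4.50), microglia-like cells (387) 2.74 (2.55 to 2.93) and endothelial-like cells (132) 0.924 (0.668 to 1.24), the lowest of these 8 classes. A median oligodendrocyte precursor-like cell had UMIs of 9 different members, at a median depth of 8071 UMIs, and a median microglia-like cell, at 7819 UMIs, had 2. The precursor-like cells thus held more kinds of channel RNA at nearly the same depth.

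**Figure D1:**
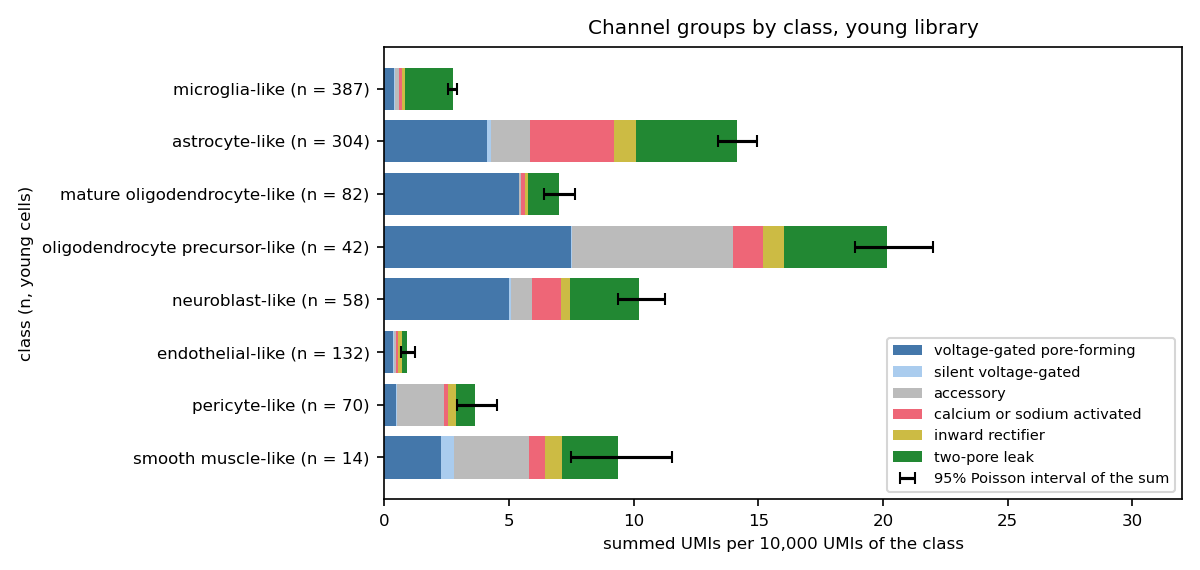
Stacked bars give the summed UMIs per 10,000 of each channel group (colours) in 8 classes of the young library, with the 95% Poisson interval of the sum of all 81 genes as a black line; the antisense RNA is in the sum and not in the bars. Leak channels make up most of the microglia-like bar and voltage-gated channels most of the mature oligodendrocyte-like bar. Accessory genes make up a large part of the bars of the precursor-like, smooth muscle-like and pericyte-like cells.

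The make-up of that sum also differed. Leak channels gave 70.3% of the members' UMIs in microglia-like cells, and voltage-gated channels gave 77.3% in mature oligodendrocyte-like cells, 48.6% in neuroblast-like and 36.7% in precursor-like cells. Channels activated by calcium or sodium gave 23.8% in astrocyte-like cells, against 11.1% in neuroblast-like and 1.96% in mature oligodendrocyte-like cells. Accessory genes gave 51.8% in pericyte-like, 32.2% in smooth muscle-like (28 UMIs) and 31.6% in precursor-like cells. Inward rectifiers, without Kcnj10 and Kcnj8, gave 18.6% in endothelial-like cells (8 of 43 UMIs) and 8.24% or less in the other 7 of these classes.

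A member is called higher in a class below when it had at least 10 UMIs there and a level at least 4 times that of the other brain-class cells, after adding 0.1 per 10,000 to both. The printed ratios have nothing added. Since all genes took part in the clustering, such a call is a description of the classes and not a test. By this rule 28 members were higher in at least 1 class, against 23.4% of the 13553 genes with 10 or more UMIs in these cells. They were 28 of the 49 members with 10 or more UMIs, 25 of them in 1 class and 3 (Kcnk2, Kcnk3 and Kcnmb1) in 2. The other 21 met the rule in no class. Precursor-like cells had 10 such members (3.68% of all genes), astrocyte-like cells 7 (3.96%), mature oligodendrocyte-like and neuroblast-like cells 3 each (2.97% and 2.60%), and microglia-like, pericyte-like and smooth muscle-like cells 2 each (3.01%, 2.91% and 2.10%). Endothelial-like cells had none (3.64%). Perivascular macrophage-like and B cell-like cells, with 10 and 5 cells, had none either (0.708% and 0.465%). The median log2 ratio of the 49 members was 0.46 in precursor-like cells, where that of all genes was 0.14, and -0.82 in microglia-like cells, where that of all genes was -0.40. In the other classes named after brain cell types it lay between -0.63 and -0.11.

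**Figure D2:**
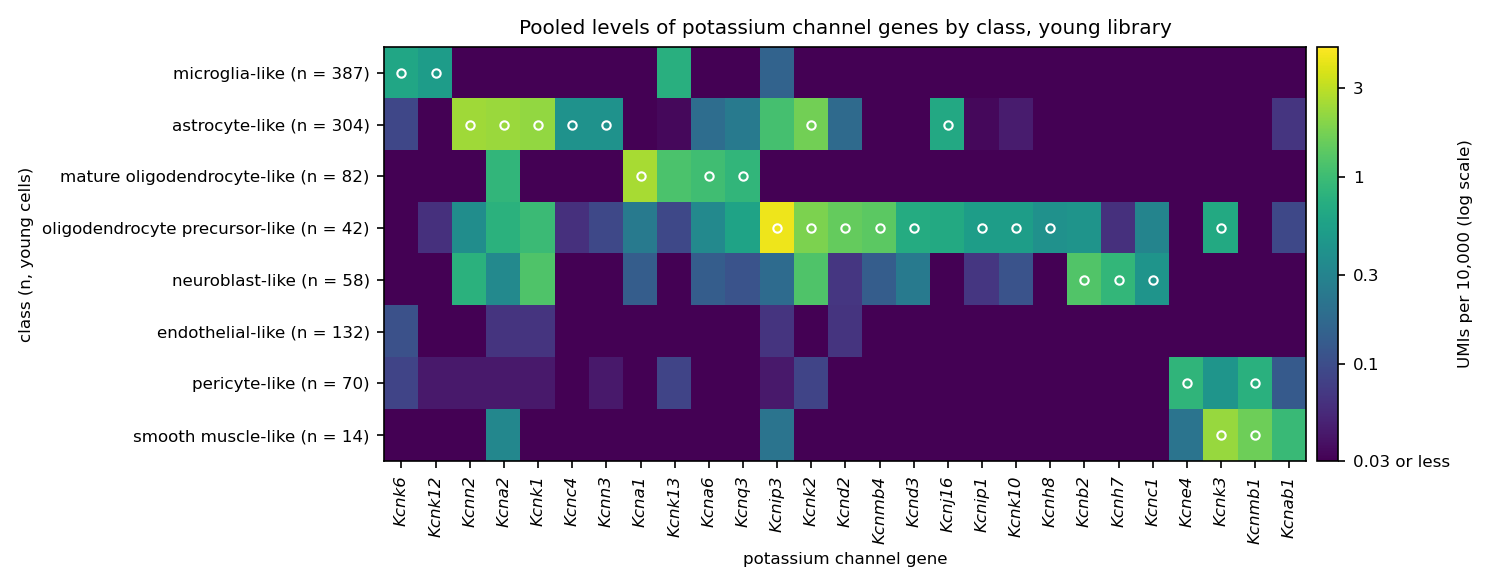
Colour gives the pooled level of 27 genes (columns) in 8 classes of the young library (rows, with the number of cells) in UMIs per 10,000 on a log scale; white circles mark genes with at least 10 UMIs in the class and a level at least 4-fold above the other brain-class cells. Columns are ordered by the class in which each gene had its highest level, so the circles of a class fall in blocks by construction. Kcnk13 is bright in both the microglia-like and the mature oligodendrocyte-like rows.

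The leak channels of the K2P family held 1368 of the 4040 UMIs, and different members of the family marked different cells. Kcnk13 (chr12:99964499-100062682) encodes THIK-1, the channel that carries the tonic potassium current of microglia and whose activity is linked to their surveillance and to interleukin release. It had 229 UMIs in microglia-like cells, a level of 0.763 UMIs per 10,000 (0.667 to 0.868), and was found in 43.2% of these cells (38.2 to 48.3). In the old rows it had 259 UMIs, 0.787 per 10,000. Kcnk13 was also found in mature oligodendrocyte-like cells, with 85 UMIs, 1.16 per 10,000 (0.930 to 1.44) and 57.3% of cells, and there the old rows gave 89 UMIs and 1.11. The level in mature oligodendrocyte-like cells was 1.53 times that of microglia-like cells (1.18 to 1.97). After thinning to 1000 UMIs per cell, without the 5 and 2 shallower cells, Kcnk13 was found in 8.38% of microglia-like (5.80 to 11.6) and 5.0% of mature oligodendrocyte-like cells (1.38 to 12.3). The thinned shares thus stood in the other order with overlapping intervals, and no order of the shares is read between these classes. The other 6 classes named above had 0 to 3 UMIs each, with 3 in 304 astrocyte-like cells (0.987% of cells, median depth 1912) and 3 in 42 precursor-like cells (4.76%, median depth 8071). Apart from these classes, the 10 perivascular macrophage-like cells had 3 UMIs, all in 1 cell, a level of 0.655 per 10,000 (0.135 to 1.91). Because each of its main classes counts as background for the other, Kcnk13 met the rule in neither, with 2.69-fold (2.11 to 3.44) in microglia-like and 2.76-fold (2.13 to 3.54) in mature oligodendrocyte-like cells.

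The partner genes did not follow Kcnk13 into the oligodendrocyte class. Kcnk12 encodes THIK-2, the closest relative of THIK-1, which can join it in 1 channel. Kcnk12 had 151 UMIs in microglia-like cells, 0.503 per 10,000 (0.426 to 0.590) in 29.7% of cells, and 162 UMIs, 0.492, in the old rows, and its level was 19.3-fold that of the other cells (9.90 to 43.0). Kcnk6 encodes TWIK-2, a leak channel reported in macrophages, and had 187 UMIs in microglia-like cells, 0.623 (0.537 to 0.719) in 36.7% of cells, with 203 UMIs and 0.617 in the old rows, 11.3-fold above the rest (7.05 to 19.2). In mature oligodendrocyte-like cells, both Kcnk12 and Kcnk6 had 0 UMIs of 729709, so their level there was at most 10.2% and 8.20% of that in microglia-like cells. The summed level of 10 microglia markers in mature oligodendrocyte-like cells was 1.03 per 10,000, 0.326% of that in microglia-like cells. Within the microglia-like class, 58 of 387 cells (15.0%) had both Kcnk13 and Kcnk12, and the product of their shares was 12.8%. For Kcnk13 with Kcnk6 these were 17.3% and 15.8%, and for Kcnk12 with Kcnk6 11.1% and 10.9%, and each product lay within the interval of the observed share. Most positive cells had a single UMI: of the 167 cells with Kcnk13, 122 had 1, 30 had 2 and 15 had 3 or more.

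Astrocyte-like cells held other K2P genes. Kcnk1 (TWIK-1) and Kcnk2 (TREK-1), both linked to the passive conductance of astrocytes, had 197 and 153 UMIs there. Kcnk1 reached 2.18 per 10,000 (1.88 to 2.50) in 33.2% of cells, 12.2-fold the rest (9.54 to 15.7), with 213 UMIs and 2.19 in the old rows. Kcnk2 reached 1.69 (1.43 to 1.98) in 29.9% of cells, 7.22-fold (5.68 to 9.19), with 154 UMIs and 1.58 in the old rows. Both were also found in neuroblast-like and precursor-like cells, and were near 0 in microglia-like cells, with 3 UMIs each (0.775% of cells, median depth 7819). The Kcnk2 level was 1.23 (0.928 to 1.60) in neuroblast-like cells and 1.83 (1.39 to 2.35) in precursor-like cells, 72.9% and 108% of the astrocyte-like level. The interval of the second ratio ran from 78.8% to 147%. For Kcnk1 the same ratios were 56.6% and 44.8%. The summed level of 12 astrocyte markers, 231 per 10,000 in astrocyte-like cells, was 9.68 in neuroblast-like and 14.7 in precursor-like cells, that is 4.19% and 6.39%, and their part in the Kcnk1 and Kcnk2 levels was not tested. Astrocyte-like cells were shallow, with a median of 1912 UMIs. Those with a Kcnk1 UMI had a median of 4222 against 1471 for those without, and the part of depth in these shares was not tested. After thinning to 1000 UMIs per cell, which left out 41 of the 304 astrocyte-like and 1 of the 58 neuroblast-like cells as too shallow, Kcnk1 was found in 15.2% of the remaining astrocyte-like cells (11.1 to 20.1) and 12.3% of the remaining neuroblast-like cells (5.08 to 23.7). Both genes occurred in 13.8% of astrocyte-like cells (10.1 to 18.2), and the product of their shares, 9.95%, lay just below that interval. Cells with Kcnk2 were also deeper, at a median of 3926 UMIs against 1516, and the part of depth in this excess was not tested. For Kcnn2 with Kcna2 in the same class the values were 22.4% (17.8 to 27.5) and 18.6%.

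Kcnk3 and Kcnk10 marked smaller classes. Kcnk3 encodes TASK-1, an acid-sensitive leak channel of vascular muscle. It had 21 UMIs in the 14 smooth muscle-like cells, 2.26 per 10,000 (1.40 to 3.46) in 9 cells, 43.6-fold the rest (24.0 to 77.6), and 25 UMIs, 2.42, in the old rows. The pericyte-like level was 0.428, from 10 UMIs, 18.9% of the smooth muscle-like level (7.96% to 42.0%). Kcnk3 had another 22 UMIs in precursor-like cells, 0.670 per 10,000, and none in astrocyte-like, microglia-like, endothelial-like or mature oligodendrocyte-like cells. Kcnk10 (TREK-2) had 17 UMIs in precursor-like cells, 0.518 per 10,000 (0.302 to 0.829), 35.3-fold the rest (14.9 to 89.8), with 20 UMIs and 0.659 in the old rows.

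**Figure D3:**
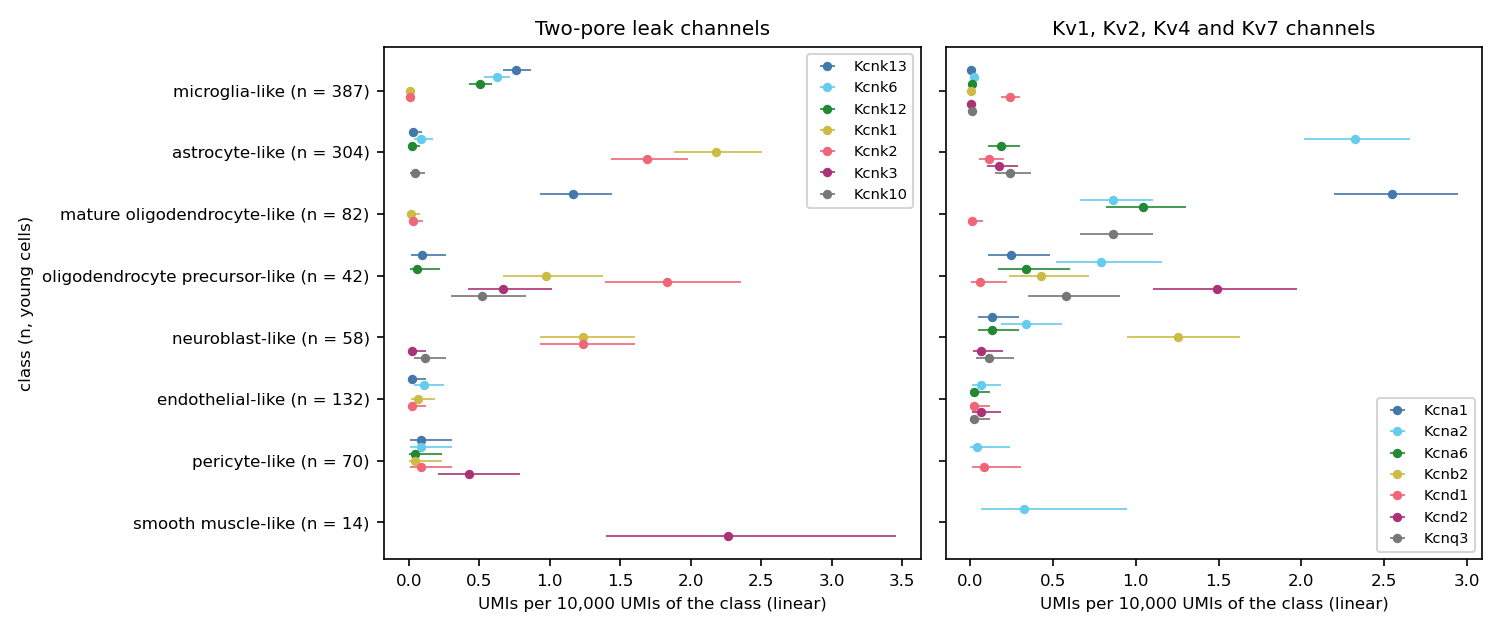
Points give pooled levels in UMIs per 10,000 on a linear axis, with 95% Poisson intervals, for 7 leak channels (left) and 7 voltage-gated channels (right) in 8 classes of the young library; genes without a UMI in a class have no point. Kcnk13, Kcnk6 and Kcnk12 stand together in microglia-like cells, Kcnk13 alone of the 3 is present in mature oligodendrocyte-like cells, and Kcna1 and Kcna2 exchange rank between mature oligodendrocyte-like and astrocyte-like cells.

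Voltage-gated channels of the Kv1 subfamily (Kcna genes) open at low depolarisation and are best known at the axon, beside the node of Ranvier. Here they were prominent in glia. Kcna1 (chr6:126640397-126646384) had 186 UMIs in mature oligodendrocyte-like cells, 2.55 per 10,000 (2.20 to 2.94), and was found in 75.6% of them (64.9 to 84.4) at a median depth of 9500.5 UMIs, with up to 10 UMIs in a cell. In the old rows it had 172 UMIs, 2.14 per 10,000. The remaining brain-class cells held 15 Kcna1 UMIs, which put the ratio at 97.3 (57.5 to 177). A single one of these was in the 387 microglia-like cells (0.258%, median depth 7819) and none in astrocyte-like cells. Kcna6 had 76 UMIs in mature oligodendrocyte-like cells, 1.04 (0.821 to 1.30) in 54.9% of cells and 15.3-fold the rest (10.3 to 23.1), with 87 UMIs and 1.08 in the old rows. Kcnq3, a subunit of the neuronal M-channel, had 63 UMIs, 0.863 (0.663 to 1.10) and 9.89-fold (6.71 to 14.6), with 72 UMIs and 0.894 in the old rows. Precursor-like cells had 19 Kcnq3 UMIs, 0.579 per 10,000 (0.348 to 0.904), an interval that overlapped that of mature oligodendrocyte-like cells. Kcna1 and Kcna6 occurred in the same cell in 41.5% of mature oligodendrocyte-like cells, and the product of their shares was also 41.5%.

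Kcna2 divided between glial types. It had 210 UMIs in astrocyte-like cells, 2.32 per 10,000 (2.02 to 2.66) in 41.8% of cells and 10.6-fold the rest (8.47 to 13.4), and 217 UMIs, 2.23, in the old rows. Mature oligodendrocyte-like cells had 63 UMIs, 0.863 (0.663 to 1.10), 37.2% of the astrocyte-like level (27.6% to 49.5%), and precursor-like cells 26 UMIs, 0.792. So within 1 subfamily, Kcna1 was highest in mature oligodendrocyte-like cells and not seen in astrocyte-like cells, while Kcna2 was highest in astrocyte-like cells. Among the other voltage-gated genes of astrocyte-like cells, Kcnc4, a fast-inactivating Kv3 channel, had 37 UMIs, 0.409 per 10,000 (0.288 to 0.564), with 4 UMIs in the rest (56.8-fold, 20.4 to 219) and 41 UMIs, 0.422, in the old rows.

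Neuroblast-like cells, the class nearest to new neurons here, were marked by other voltage-gated genes. Kcnb2 (chr1:15287254-15723750) encodes a Kv2 delayed rectifier and had 56 UMIs, 1.25 per 10,000 (0.948 to 1.63), in 29 of 58 cells, 50.3-fold the rest (28.0 to 95.7), and 58 UMIs, 1.29, in the old rows. Kcnh7, an ERG-type channel, had 40 UMIs, 0.896 (0.640 to 1.22), with 4 in all other brain-class cells (135-fold, 48.7 to 518) and 39 UMIs, 0.868, in the old rows. Kcnc1, the Kv3 channel of fast-spiking neurons, had 19 UMIs, 0.426 (0.256 to 0.665), 18.3-fold (8.69 to 39.4), and 20 UMIs, 0.445, in the old rows. Precursor-like cells held 10 of the 14 Kcnc1 UMIs of the rest, a level of 0.305 (0.146 to 0.560), which was 71.6% of the neuroblast-like level with an interval of 29.7% to 162%. They also held 14 of the 15 Kcnb2 UMIs of the rest, 0.426 per 10,000 or 34.0% of the neuroblast-like level (17.5% to 61.9%). Thus Kcnc1 was not told apart between these classes at this depth. The neuroblast-like class was not uniform. A sub-cluster of 9 young cells with Cajal-Retzius markers (early-born neurons that secrete reelin) held 18 of the 56 Kcnb2 and 19 of the 40 Kcnh7 UMIs, levels of 3.99 (2.36 to 6.31) and 4.21 (2.54 to 6.58). Without it the Kcnh7 level was 0.523 (0.324 to 0.8001), 78.6-fold the rest (26.5 to 315), so the sub-cluster moved it by more than 1.5 times. The Kcnb2 level was then 0.947, 38.0-fold (20.4 to 74.3), and the sum of all members 8.42. Both genes still met the rule. Kcnk1 also varied: among the 4 sub-clusters named after neuroblasts, the one with 15 cells had 0 UMIs, as did the Cajal-Retzius-like cells, and the one with 13 cells had 4, 0.382 per 10,000 (0.104 to 0.979). The one with 9 cells had 15 UMIs, 4.73 per 10,000 (2.65 to 7.80), and the one with 12 cells had 36 UMIs, 3.54 (2.48 to 4.90). These 21 cells thus held 51 of the 55 Kcnk1 UMIs behind the class level of 1.23. Sub-clusters were made after the data were seen, so these values are descriptions.

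Precursor-like cells combined the pore genes of A-type current with its accessory genes. Kcnd2 and Kcnd3 encode Kv4 channels, which carry this fast transient current, and KChIP proteins (Kcnip genes) are calcium-binding partners that raise Kv4 levels at the membrane. Kcnd2 had 49 UMIs, 1.49 per 10,000 (1.10 to 1.97), in 54.8% of cells and 39.8-fold the rest (23.8 to 68.4), with 35 UMIs and 1.15 in the old rows. Kcnd3 had 23 UMIs, 0.701 (0.444 to 1.05), 30.7-fold (15.1 to 64.5), and 25 UMIs, 0.824, in the old rows. Kcnip3 (chr2:127456498-127522094), whose product is also called calsenilin or DREAM, had the highest level of any member in any class of 30 or more cells: 144 UMIs, 4.39 per 10,000 (3.70 to 5.16), in 85.7% of precursor-like cells (71.5 to 94.6), 16.6-fold the rest (13.2 to 20.9), with 128 UMIs and 4.22 in the old rows. Astrocyte-like cells had 25.2% of that level (100 UMIs, 1.11 per 10,000) and microglia-like cells 3.49% (46 UMIs, 0.153). After thinning to 1000 UMIs per cell, which left out 1, 41 and 5 shallower cells, Kcnip3 was found in 41.5% of precursor-like, 11.0% of astrocyte-like and 1.05% of microglia-like cells. Kcnip1 had 17 UMIs in precursor-like cells, 0.518 (0.302 to 0.829), 52.9-fold (19.9 to 164), and 15 UMIs, 0.494, in the old rows. KChIP genes gave 24.2% and Kv4 genes 11.0% of the 670 member UMIs of this class. Kcnd1, the third Kv4 gene and the one with the most UMIs (88), went elsewhere: 72 of its UMIs were in microglia-like cells, 0.240 per 10,000 (0.188 to 0.302) in 16.0% of cells, and 2 in precursor-like cells. Its ratio in microglia-like cells was 5.17 (2.98 to 9.53), which did not reach 4 once 0.1 was added to both sides.

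Kcnh8, an ELK-type voltage-gated channel, was called in precursor-like cells with 13 UMIs, 0.396 per 10,000, and 1 UMI in the rest, and is named here after its values were seen. Kcnmb4, the neuronal beta subunit that slows the large-conductance BK channel, had 45 UMIs, 1.37 (1.00 to 1.83), in 61.9% of precursor-like cells and 93.3-fold the rest (45.1 to 217), with 42 UMIs and 1.38 in the old rows. The pore gene it acts on, Kcnma1, met the rule in no class: its 78 UMIs included 25 in astrocyte-like, 17 in precursor-like and 17 in microglia-like cells, with levels of 0.276, 0.518 and 0.0566 per 10,000. The 14 smooth muscle-like cells had 5 UMIs, 0.538 per 10,000 (0.175 to 1.26) and 4.69-fold the rest (1.48 to 11.5). The antisense RNA Kcnmb4os2 had 12 UMIs, 8 of them in precursor-like cells.

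Among channels opened by internal calcium, those of small conductance (SK, Kcnn genes) marked astrocyte-like cells. Kcnn2 had 216 UMIs there, 2.39 per 10,000 (2.08 to 2.73), the highest level of the class, in 44.4% of cells and 27.0-fold the rest (19.8 to 37.7), with 229 UMIs and 2.36 in the old rows. Kcnn3 had 37 UMIs, 0.409 (0.288 to 0.564), with 5 in all other brain-class cells (45.4-fold, 17.8 to 148), and 41 UMIs, 0.422, in the old rows. Kcnn2 was also found in neuroblast-like cells, with 35 UMIs, 32.9% of the astrocyte-like level (22.3% to 47.1%), and in precursor-like cells, with 12 UMIs, 15.3% (7.79% to 27.3%). It had no UMI in 387 microglia-like or 82 mature oligodendrocyte-like cells, whose median depths were 7819 and 9500.5 UMIs, and 3 and 1 UMIs there in the old rows. Kcnt1, a sodium-activated channel, had 20 of its 27 UMIs in astrocyte-like cells, and Kcnu1, a channel best known from sperm, had 10 UMIs in all. Neither met the rule.

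Of the 12 inward rectifiers, Kcnj16 had the most UMIs (87). Its product, Kir5.1, forms channels with the product of Kcnj10 in astrocytes. It had 60 UMIs in astrocyte-like cells, 0.663 per 10,000 (0.506 to 0.854), 13.6-fold the rest (8.52 to 22.3), with 54 UMIs and 0.556 in the old rows. The precursor-like level was 0.670, 101% of the astrocyte-like one (59.0% to 167%), from 22 UMIs. Kcnj13 encodes Kir7.1 and Kcne2 an accessory subunit, both known from the apical membrane of the choroid plexus. All 28 Kcnj13 and all 11 Kcne2 UMIs of the 44 unnamed brain-class cells came from a sub-cluster of 8 cells in which 7 of 8 choroid plexus markers met the naming rule. This sub-cluster stayed unnamed because blood genes led it as well. In the unnamed cells together, where 0.627% of all genes were called, the Kcnj13 level was 133-fold the rest (56.8 to 361). Kcne2 had no UMI in other brain-class cells. The lower limit of its ratio was 83.5, and a floor of 3 counts over the other cells put the ratio at 122. Each gene was found in only 3 of the unnamed cells, and 1 cell held 16 of the Kcnj13 UMIs. The Kcnj13 counts cannot be told apart from reads of Gigyf2 on the opposite strand if the counting ignored strand.

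The members called in mural cells of vessels were accessory genes, apart from the leak channel Kcnk3, the highest member of smooth muscle-like cells. Kcne4, an accessory subunit that damps Kv1 and Kv7 channels, had 20 UMIs in pericyte-like cells, 0.856 per 10,000 (0.523 to 1.32), in 11 of 70 cells, with 4 in all other brain-class cells (133-fold, 44.6 to 536), and 22 UMIs, 0.909, in the old rows. Kcnmb1, the beta subunit of BK channels in smooth muscle, had 15 UMIs in smooth muscle-like cells, 1.62 (0.904 to 2.66), 54.1-fold the rest (25.6 to 112), with 16 UMIs and 1.55 in the old rows. Pericyte-like cells had 18 Kcnmb1 UMIs, 0.771 (0.457 to 1.22), and 18 UMIs, 0.744, in the old rows, 47.7% of the smooth muscle-like level (22.7% to 102%). The summed level of 9 smooth muscle markers in pericyte-like cells was 28.0 per 10,000, 5.99% of that in smooth muscle-like cells, and their part in the Kcnmb1 level was not tested. Kcnab1, the Kv beta gene with the most UMIs (24), had 9 of them in the 14 smooth muscle-like cells, and Kcne1l, first of the MinK family by UMIs (34), had 22 in astrocyte-like and 10 in neuroblast-like cells.

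Endothelial-like cells had little channel RNA of these families. Their 43 member UMIs came from 24 genes, the most from Kcnk6 with 5 UMIs, 0.107 per 10,000 (0.0349 to 0.251), and no member reached 10. Kcnj3 and Kcnip3 had 3 UMIs each, a count shared with 4 other members, and both were at 0 once 6 cells called as doublets were left out. Silent subunits were rare throughout: Kcng2 had 15 UMIs, 10 of them in microglia-like cells, Kcns3 had 4 and Kcnf1 none. Depth limits all such values, since 3 UMIs in the endothelial-like class correspond to 0.0644 per 10,000.

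Genes that act with these channels, and other potassium transporters, were taken from lists of 15 and 14 genes. Of the 15 channel partners, 13 were in the table, 9 had 10 or more UMIs and 7 met the rule in a class, beside the 23.4% of all genes. The median log2 ratio of those 9 was 0.11 in precursor-like cells, where that of all genes was 0.14. Abcc9, the sulfonylurea receptor of vascular ATP-sensitive channels, which is also 1 of the pericyte markers used for naming, had 140 UMIs in pericyte-like cells, 5.99 per 10,000. Dpp6 and Dpp10, membrane partners of Kv4 channels, had 57 and 13 UMIs in precursor-like cells, 1.74 and 0.396 per 10,000, the class that was also highest for Kcnd2 and Kcnd3. Adam22, a partner of Kv1 channels and LGI proteins, had 30 UMIs there, 0.914 per 10,000, and Lgi1 had 158 UMIs in astrocyte-like cells, 1.75. Cntn2, the contactin that holds Kv1 channels beside the node, had 259 UMIs in mature oligodendrocyte-like cells, 3.55, and its axonal partner Cntnap2 had 22 UMIs in neuroblast-like cells, 0.493. Of 14 genes of other potassium transport, 10 had 10 or more UMIs. Of these 10, 3 met the rule, which is near the 23.4% of all genes. Hcn2, a pacemaker channel (159 UMIs, 2.18), and Slc12a2, the sodium-potassium-chloride carrier (436 UMIs, 5.97), did so in mature oligodendrocyte-like cells. Tmem38b, a channel of the sarcoplasmic reticulum (23 UMIs, 2.48), did so in smooth muscle-like cells.

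The rows of both libraries were compared over shared barcodes of the same class. No member was 2-fold apart in any class, with 10 or more UMIs in both libraries together and 0.1 added to both levels. The share of all genes past this limit was 0.154% in microglia-like, 0.121% in astrocyte-like, 0.141% in endothelial-like, 0.294% in mature oligodendrocyte-like, 0.168% in pericyte-like, 0.368% in neuroblast-like, 0.264% in precursor-like, 0.303% in smooth muscle-like and 0.303% in unnamed cells. In perivascular macrophage-like (0.663%) and B cell-like cells (0.830%) no member had enough UMIs to be compared. Over all shared brain-class barcodes, where 58 members could be compared and 0.0613% of genes passed, none did either. The median log2 ratio of the members was -0.01, as was that of all genes. Before 0.1 was added, 3 genes with 3 UMIs each in the young rows were past 2-fold, and each interval included 1. They were Kcnip3 in endothelial-like cells (11 old UMIs, ratio 3.28, 0.866 to 18.3), and Kcnk1 (9 old UMIs, 2.68, 0.670 to 15.4) and Kcna6 (8 old UMIs, 2.39, 0.573 to 13.96) in microglia-like cells. These barcodes hold mostly the same cells, so the comparison says nothing about age.

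**Figure D4:**
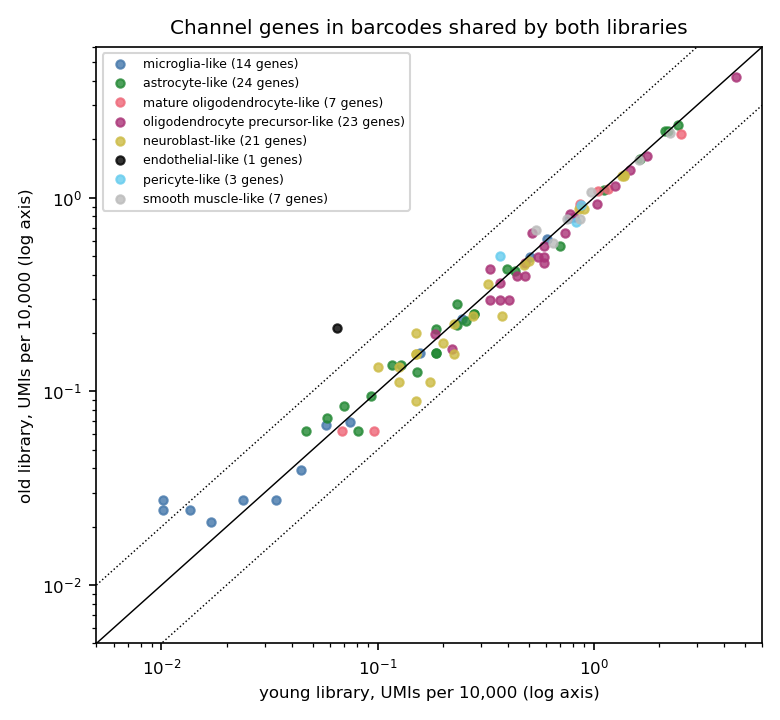
Each point is 1 gene in 1 class over barcodes present in both libraries, with its level in the young (horizontal) and old (vertical) library in UMIs per 10,000 on log axes; colours mark the class, the solid line equality and the dotted lines 2-fold. All points but 3 lie between the dotted lines, and these 3 are Kcnip3 in endothelial-like cells and Kcnk1 and Kcna6 in microglia-like cells, each with 3 UMIs in the young rows.

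The 1315 low-mitochondrial cells of the young library, whose identity was not set, held 1308 member UMIs, a summed level of 1.34 per 10,000 (1.27 to 1.41), and their leading genes were others. Kcnmb4 had 216 UMIs, 0.221 per 10,000, Kcnj2 191 UMIs, 0.196, and Kcnh2 104 UMIs, 0.107, named as the 3 with the most UMIs. Of the Kcnj2 UMIs, 152 were in 1 cluster of 364 cells, 0.552 (0.468 to 0.647). Among brain-class cells, Kcnj2 had 22 UMIs in microglia-like cells, 0.0733, and 7 in mature oligodendrocyte-like cells, 0.0959 (0.0386 to 0.198). Leak channels, the main group in microglia-like cells, gave 4.89% of the member UMIs of the low-mitochondrial cells.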

How the data were processed

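Single-cell RNA-seq of 10x Genomics 3' libraries was analysed, with Cell Ranger 5.0.0 and build mm10 named per the submitters' processing notes. The deposited values are on a natural log scale, taken of a cell's UMIs per 10,000 after 1 was added. This unit was read from the values, and undoing it gave whole UMIs for 100% of values within a tolerance of 0.01. These recovered UMIs were used, so the count-based plan held. Cells were clustered with Scanpy 1.11.5 (2000 variable genes, 30 components, 15 neighbours, Leiden resolution 1) in Python 3.11.15, and clusters were named from 197 markers of 22 classes, with at least 3 markers needed. Scrublet called 37 young and 23 old cells as doublets, which were kept. Levels per class, intervals and ratios were computed with numpy 2.4.6, scipy 1.17.1 and pandas 2.3.3. The rule for higher genes was tested on simulated counts. Sequences were read from GENCODE M21. The members, gene lists and rules were chosen with earlier results of these data known.

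Genes named in the text are up to 6 members per class with the highest ratio among those called, the 3 with the highest level in each class of 30 or more cells, members 2-fold apart between libraries, the member with the most UMIs of each family, and genes of the lists of channel partners and other potassium transport that met the rule. Other names were chosen after values were seen. Alternatives were other clusterings, doublets left out, old rows, means over cells, thinning to 1000 UMIs, other minimums, pseudocounts and folds, and, added after seeing the data, leaving out the Cajal-Retzius-like sub-cluster.

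A few members that these rules name are not reported here, though they stay in the counts and sums.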

Additional observations from a re-analysis of the deposited data

How the results depend on the processing

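No paired analysis was possible because each age has 1 library. No ratio of a called member fell below 1 under the alternatives run. The 28 members called in a class became 22 with a minimum of 20 UMIs (22.9% of all genes) and 31 with 5 UMIs (22.8% of all genes). They became 38 at 2-fold (53.3% of all genes) and 37 with a pseudocount of 0.01 (35.5% of all genes). All 28 remained called in some class under each of the other alternatives except the old rows, where 27 of them did. Counted as calls of a gene in a given class, there were 31. Of these, 28 remained at Leiden resolution 0.6 and 29 in the old rows. In the clustering without Kcn genes and as means over cells, 30 remained. The summed level in pericyte-like cells was 5.27 at Leiden resolution 0.6, at which the smooth muscle-like cells joined that class. As means over cells, the sums were 2.95 in microglia-like, 15.8 in astrocyte-like and 14.4 in neuroblast-like cells. The neuroblast-like sum was 8.42 without the Cajal-Retzius-like sub-cluster, an alternative chosen after seeing the data. Between libraries, 1 member was 2-fold apart with a pseudocount of 0.01, Kcnip3 in endothelial-like cells. Kcnk2 in precursor-like cells fell below the 4-fold limit (with the pseudocount) in the clustering without Kcn genes (3.87), at resolution 0.6 (3.87), in the old rows (3.92) and as a mean over cells (2.52), and Kcnh8 there in the old rows (3.91). Thinning to 1000 UMIs per cell put 21 of 24 shares of cells below the interval of the unthinned share and left 3 within it, and turned the order of the Kcnk13 shares of mature oligodendrocyte-like (5.0%) and microglia-like cells (8.38%). Thinning lowers shares by its construction. The other causes were not tested. Classes of few cells limit all values: 3 UMIs were the floor for any fold against a class at 0.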
